A study of Homo sapiens with 4 samples.

Results

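The genes described here are the 3 D-type cyclins CCND1, CCND2 and CCND3 and their catalytic partners CDK4 and CDK6. They were chosen by gene name in a deposited table of transcript abundances, where all 5 were found among 11213 gene names. Their values were the sums of 20 of the 32551 transcripts listed. Abundances are in TPM, a transcript's share of all transcripts scaled to 1000000, which is adjusted for transcript length and has the same total in every library.

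RNA came from K562, a human cell line established from chronic myeloid leukaemia that carries the BCR-ABL1 fusion and resembles early erythroid cells. The 2 shPHF8 libraries came from cells transduced with lentivirus carrying a hairpin against PHF8, a histone demethylase, and the 2 shControl libraries from cells transduced with a control hairpin. Both groups were exposed to polybrene and puromycin, and no untransduced cells were among the samples. The labels give shPHF8-1 as a hairpin name and also number the knockdown libraries 1 and 2, so whether these share a hairpin cannot be told from them. They do not state separate cultures or whether selected cells were cloned, so the errors below measure the spread between these libraries, which may be technical.

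D-type cyclins link growth signals to the cell cycle. They bind CDK4 or CDK6, and the active kinase phosphorylates the retinoblastoma protein RB1 and its relatives, which frees E2F factors to switch on genes for S phase. INK4 proteins block CDK4 and CDK6, whereas CIP/KIP proteins chiefly inhibit CDK2. In blood cells CCND2 and CCND3 are the usual D-type cyclins, CCND2 is a known target of STAT5, and CDK6 is abundant in immature cells.

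The results on isoforms below turn on 2 genes with alternative starts or exons. CDK6 has 2 listed transcripts, CDK6-001 and CDK6-002, with identical coding sequences of 978 bases in GENCODE release 29 and first exons that start 2677 bases apart. Both transcripts were higher in shPHF8, by unlike estimates whose difference was not tested. For this reason the 250 bases before each of the 2 CDK6 start sites are shown. They are from RefSeq, build GRCh38.p14, minus strand, with the GC box GGGCGG in capitals where either strand holds it.
CDK6 upstream start, chr7:92836574-92836823: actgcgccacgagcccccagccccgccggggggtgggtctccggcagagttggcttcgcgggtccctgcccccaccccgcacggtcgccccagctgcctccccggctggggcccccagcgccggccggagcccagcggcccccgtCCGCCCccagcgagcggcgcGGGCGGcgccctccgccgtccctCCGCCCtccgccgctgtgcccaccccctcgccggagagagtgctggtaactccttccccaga
CDK6 downstream start, chr7:92833960-92834209: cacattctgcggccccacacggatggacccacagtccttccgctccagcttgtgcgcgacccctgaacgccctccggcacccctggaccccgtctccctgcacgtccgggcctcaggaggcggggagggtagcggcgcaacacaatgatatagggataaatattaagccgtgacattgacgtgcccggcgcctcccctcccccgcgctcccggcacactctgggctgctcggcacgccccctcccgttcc
The start of CDK6-002 lay 21 bases from the upstream site and that of CDK6-001 lay 42 bases from the downstream site. The upstream window held 3 GC boxes and was 80.0% G or C. The downstream window held none and was 67.6% G or C. Of 35116 RefSeq windows of this length, 42.6% held a GC box, and the median content of G and C was 58.0%. Neither CDK6 window held the E2F motifs TTTGGCGC or GGCGGGAA, the E-box CACGTG, the TATA box TATAAA, the STAT motif TTCNNNGAA or the GATA motif AGATAA on either strand. The window before CDK4, searched in the same way, held 3 GC boxes and 3 E-boxes, the latter a motif present in 6.34% of all windows. The CCND3 windows held no E-box, and held 5, 2 and 0 GC boxes. None of these windows held the other motifs.

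CCND3 has 7 listed transcripts, which differ in where their coding sequence starts and in which coding bases they hold. The first 60 coding bases are given for 3 of them, from GENCODE release 29, with the start codon in capitals.
CCND3-001: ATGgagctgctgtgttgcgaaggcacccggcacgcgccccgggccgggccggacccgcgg
CCND3-002: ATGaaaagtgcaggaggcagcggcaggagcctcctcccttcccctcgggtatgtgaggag
CCND3-006: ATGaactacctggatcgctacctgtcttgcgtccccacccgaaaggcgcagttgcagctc
The coding sequence was 876 bases in CCND3-001, 726 in CCND3-002 and 633 in CCND3-006. CCND3-002 begins with a coding exon of 48 bases that shares none with the exons of CCND3-001, and CCND3-006 starts inside the second coding exon of CCND3-001. CCND3-003 keeps the start of CCND3-001 and skips its second coding exon of 216 bases, or 72 codons. The junctions that tell these 2 apart are shown from coding base 179 to 218, with the bases after the junction in capitals.
CCND3-001 junction: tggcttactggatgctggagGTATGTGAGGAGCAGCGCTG
CCND3-003 junction: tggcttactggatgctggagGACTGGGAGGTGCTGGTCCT

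The knockdown target was checked first. PHF8 was at 6.06 and 6.42 TPM in the shPHF8 libraries, against 25.9 and 22.5 TPM in the shControl libraries. Of the 11213 genes, the 10972 with a mean of at least 1 TPM were tested with limma on log2(TPM + 1), a scale that understates the change of genes with low TPM. None passed at a Benjamini-Hochberg adjusted p of 0.05, the smallest being 0.0554. At an unadjusted limma p under 0.05, 22.0% of genes differed, 9.90% being higher and 12.1% lower in shPHF8. The groups did not overlap in 55.3% of genes. With so high a background, counts among 5 genes are read against these shares. The number of reads behind a TPM is unknown, and libraries of different groups were nearly as alike as replicates (Pearson r across genes, which are not independent, 0.969 within shPHF8, 0.964 within shControl and 0.947 to 0.953 between them).

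All 3 D-type cyclins were lower in both shPHF8 libraries than in either shControl library, CDK6 was higher, and CDK4 overlapped between the groups. Lack of overlap was common, with 29.3% of all genes lower and 26.0% higher in both shPHF8 libraries. No member passed over all genes. At an unadjusted limma p under 0.05, CCND1 and CCND2 were lower and CDK6 was higher, 2 and 1 of 5 members, beside 12.1% and 9.90% of all genes tested. The median log2 fold change of the members was -0.50, beside -0.02 over all genes.

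CCND1 (cyclin D1, ENSG00000110092, chromosome 11) was at 2.37 and 2.89 TPM in the shPHF8 libraries, against 8.82 and 7.58 TPM in the shControl libraries. It was the lowest of the 5 in every library, and its shPHF8 mean was 32.1% of the shControl mean. On the log2 scale it was lower, with a fold change of -1.34 ± 0.22 (SE) and 95% confidence bounds of -1.94 and -0.74 (limma, unadjusted p = 0.00317, Benjamini-Hochberg adjusted p = 0.0944). Of the genes tested, 191 had a lower log2 fold change.

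CCND2 (cyclin D2, ENSG00000118971, chromosome 12) was at 47.05 and 48.75 TPM in the shPHF8 libraries, against 85.0 and 96.6 TPM in the shControl libraries. The shPHF8 pair differed by less than the shControl pair, and the shPHF8 mean was 52.8% of the shControl mean. This gave a log2 fold change of -0.91 ± 0.11 (SE) and 95% confidence bounds of -1.20 and -0.61 (limma, unadjusted p = 0.000901, Benjamini-Hochberg adjusted p = 0.0698). Both CCND1 and CCND2 are listed with a single transcript, so no sum over listed isoforms was needed. Whether reads were also divided with unlisted isoforms is unknown, as the annotation was not given.

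CCND3 (cyclin D3, ENSG00000112576, chromosome 6), the most abundant D-type cyclin in each library, was at 85.7 and 127.5 TPM in the shPHF8 libraries, against 149.6 and 146.8 TPM in the shControl libraries. The groups did not overlap, but the shPHF8 libraries lay 0.57 apart on the log2 scale, a gap exceeded by 13.8% of genes, while the shControl libraries lay 0.03 apart. The estimated log2 fold change, -0.50 ± 0.21 (SE), had 95% confidence bounds of -1.07 and 0.07 (limma, unadjusted p = 0.0729, Benjamini-Hochberg adjusted p = 0.271). It was -0.22 without shPHF8 replicate 1 and -0.78 without shPHF8 replicate 2. The interval leaves room for a CCND3 level, on the TPM + 1 scale, from 0.476 to 1.05 times that of shControl.

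**Figure D1:**
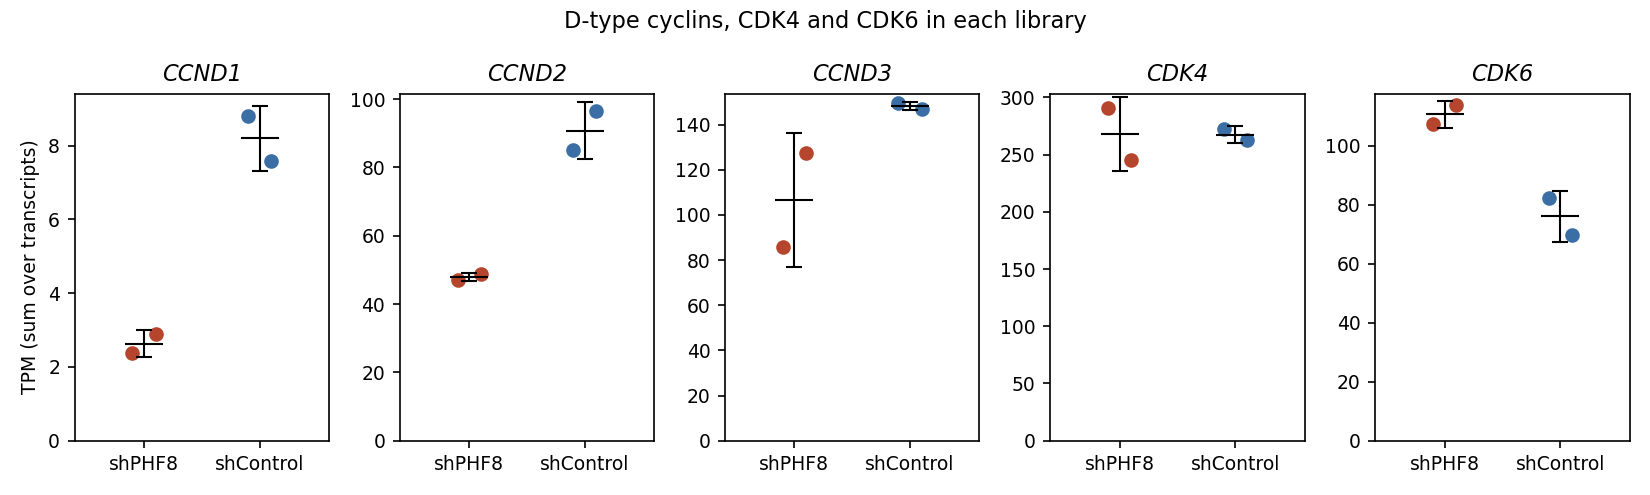
TPM (vertical axes, each from 0) of CCND1, CCND2, CCND3, CDK4 and CDK6 in the 2 shPHF8 libraries (left) and the 2 shControl libraries (right); points are libraries, the long bar is the mean and the whiskers are 1 SD over 2 libraries. The 3 cyclins lie lower and CDK6 higher in shPHF8, and CDK4 overlaps at about 245 to 291 TPM.

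CDK6 (ENSG00000105810, chromosome 7), a kinase partner of D-type cyclins, was at 107.5 and 114.0 TPM in the shPHF8 libraries, against 82.3 and 69.9 TPM in the shControl libraries. Both shPHF8 values exceeded both shControl values, with means of 110.8 ± 4.60 and 76.1 ± 8.74 TPM (SD, n = 2 each). The corresponding log2 fold change of 0.54 ± 0.12 (SE) had 95% confidence bounds of 0.22 and 0.85 (limma, unadjusted p = 0.00852, Benjamini-Hochberg adjusted p = 0.121). Without shPHF8 replicate 2 the limma unadjusted p was 0.0508, at a log2 fold change of 0.50 and a Benjamini-Hochberg adjusted p of 0.367. Of the genes tested, 946 had a higher log2 fold change.

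CDK4 (ENSG00000135446, chromosome 12), the other kinase partner, was at 290.7 and 245.1 TPM in the shPHF8 libraries, against 272.7 and 262.4 TPM in the shControl libraries. It was the most abundant of the 5 in every library, and 95.04% of the genes tested had a lower mean TPM. The shControl values lay between the shPHF8 values. The log2 fold change was 0.00 in size with an SE of 0.10, and its 95% confidence interval ran from -0.29 to 0.28 (limma, Benjamini-Hochberg adjusted p = 0.989), which leaves room for a level from 0.818 to 1.22 times that of shControl.

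Since TPM are per length, the levels of the 5 genes can be set side by side. In the shPHF8 libraries the order of mean TPM was CDK4, CDK6, CCND3, CCND2 and CCND1, and the neighbours CDK6 and CCND3 overlapped. In the shControl libraries it was CDK4, CCND3, CCND2, CDK6 and CCND1, and CCND2 exceeded CDK6 only narrowly, the lowest CCND2 value being 85.0 and the highest CDK6 value 82.3 TPM. CDK6 thus ranked above both CCND2 and CCND3 by its mean in shPHF8 and below both in shControl.

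The summed D-type cyclins were at 135.1 and 179.1 TPM in the shPHF8 libraries, against 243.3 and 251.0 TPM in the shControl libraries. CDK4 and CDK6 together were at 398.2 and 359.1 TPM in shPHF8, against 355.0 and 332.3 TPM in shControl. The D-type cyclins therefore amounted to 0.339 and 0.499 TPM per TPM of the 2 kinases in shPHF8 and to 0.686 and 0.755 in shControl, without overlap. CDK6 made up 27.0% and 31.8% of the kinase sum in shPHF8, against 23.2% and 21.0% in shControl. CCND1 made up 1.75% and 1.61% of the D-type cyclins in shPHF8 and 3.62% and 3.02% in shControl. CCND3 made up 63.4% and 71.2% in shPHF8 and 61.5% and 58.5% in shControl, and CCND2 the rest. These ratios were not tested.

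**Figure D2:**
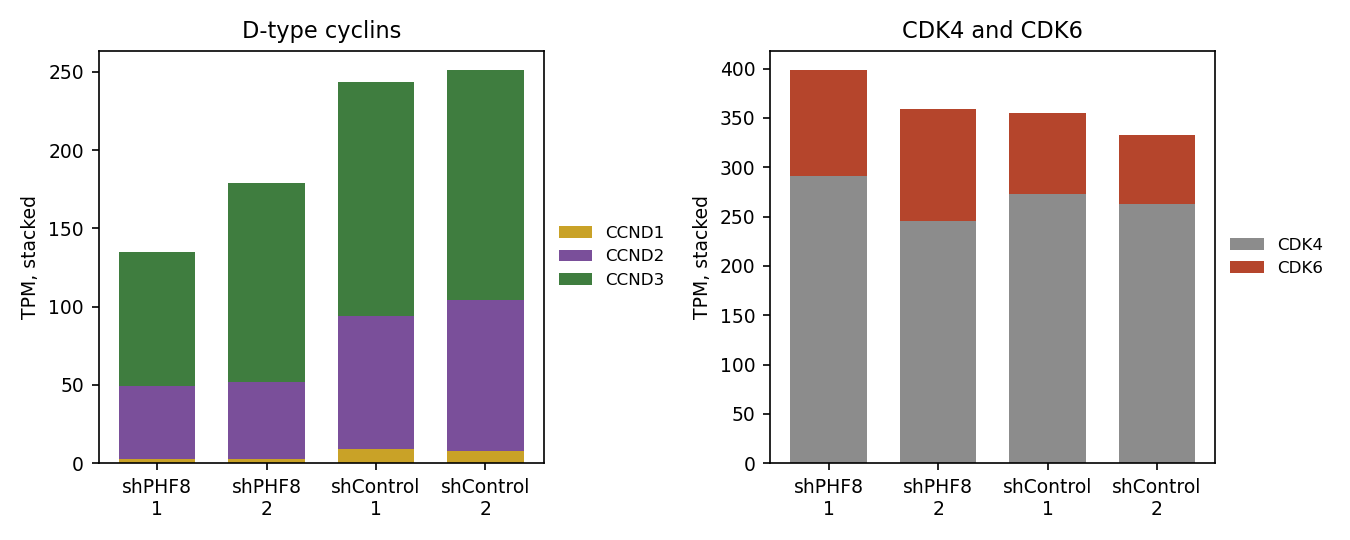
TPM per library, stacked by gene, for the D-type cyclins (left panel) and for CDK4 and CDK6 (right panel), with shPHF8 libraries left of shControl libraries. The cyclin stack reaches 135.1 and 179.1 TPM in shPHF8 and 243.3 and 251.0 TPM in shControl, and the CDK6 segment is larger in shPHF8.

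Single transcripts were also compared, among the 30266 with a mean of at least 1 TPM. All 20 member transcripts were among them and all are annotated as protein-coding in GENCODE release 29, 7 of them with an incomplete end. Isoforms share exons, so these values depend on how reads were divided and are less certain than the sums. Over all transcripts 0.00330% were called at an adjusted p of 0.05, which was 1 transcript, EEF1A1-004 of a translation elongation factor with near-identical copies, named after its value was seen. At an unadjusted limma p under 0.05, 2 of the 20 member transcripts were higher and 3 lower, beside 4.91% and 5.38% of all transcripts tested. The groups did not overlap in 10 of the 20, 2 being higher and 8 lower, beside 43.2% of all transcripts, 21.0% being higher and 22.2% lower.

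Both CDK6 transcripts were higher in shPHF8. CDK6-002, from the upstream start, was at 17.0 and 17.2 TPM in the shPHF8 libraries, against 6.34 and 6.75 TPM in the shControl libraries. CDK6-001, from the downstream start, was at 90.5 and 96.8 TPM in shPHF8, against 75.9 and 63.2 TPM in shControl. The log2 fold change was 1.26 ± 0.20 (SE) for CDK6-002 (limma, unadjusted p = 0.00477, Benjamini-Hochberg adjusted p = 0.247). It was 0.43 ± 0.14 (SE) for CDK6-001 (limma, unadjusted p = 0.0429, Benjamini-Hochberg adjusted p = 0.461). CDK6-002 took 15.8% and 15.1% of CDK6 in shPHF8 and 7.71% and 9.66% in shControl, a difference between the groups larger than that within either. GENCODE gives CDK6-002 a length of 1465 bases and CDK6-001 a length of 11612 bases, so the 2 also differ in the length outside the coding sequence.

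CCND3 divided its abundance unevenly among isoforms, and 1 library stood apart. CCND3-001, the full-length form, was at 66.2 and 15.2 TPM in the shPHF8 libraries, against 78.9 and 103.6 TPM in the shControl libraries. CCND3-002, whose first coding exon is its own, was at 9.16 and 104.3 TPM in shPHF8, against 7.62 and 11.8 TPM in shControl. In shPHF8 replicate 2 it held 81.8% of CCND3, and in the other 3 libraries 5.09% to 10.7%. Its log2 fold change of 1.64 ± 1.29 (SE) became -0.05 without that library, and that of CCND3-001, -1.47 ± 0.79 (SE), became -0.44 (limma, Benjamini-Hochberg adjusted p = 0.689 and 0.632 with all libraries). The exon-skipping CCND3-003 was listed at 0 in both shPHF8 libraries, against 41.1 and 16.4 TPM in the shControl libraries, where it held 27.5% and 11.2% of the gene (limma, unadjusted p = 0.00156, Benjamini-Hochberg adjusted p = 0.188). The other 4 CCND3 transcripts had means of 1.44 to 4.0 TPM in shPHF8 and of 2.57 to 6.68 TPM in shControl.

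CDK4 isoforms differed mainly between replicates. The full-length CDK4-001 was at 220.8 and 167.7 TPM in the shPHF8 libraries, against 185.9 and 101.8 TPM in the shControl libraries. CDK4-201, with a shorter coding sequence of 333 bases in place of 909, was listed at 0 and 1.36 TPM in shPHF8, against 0 and 85.8 TPM in shControl. It held 32.7% of CDK4 in shControl replicate 2 alone. All 9 CDK4 transcripts overlapped between the groups, and 6 of them are annotated with an incomplete end.

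**Figure D3:**
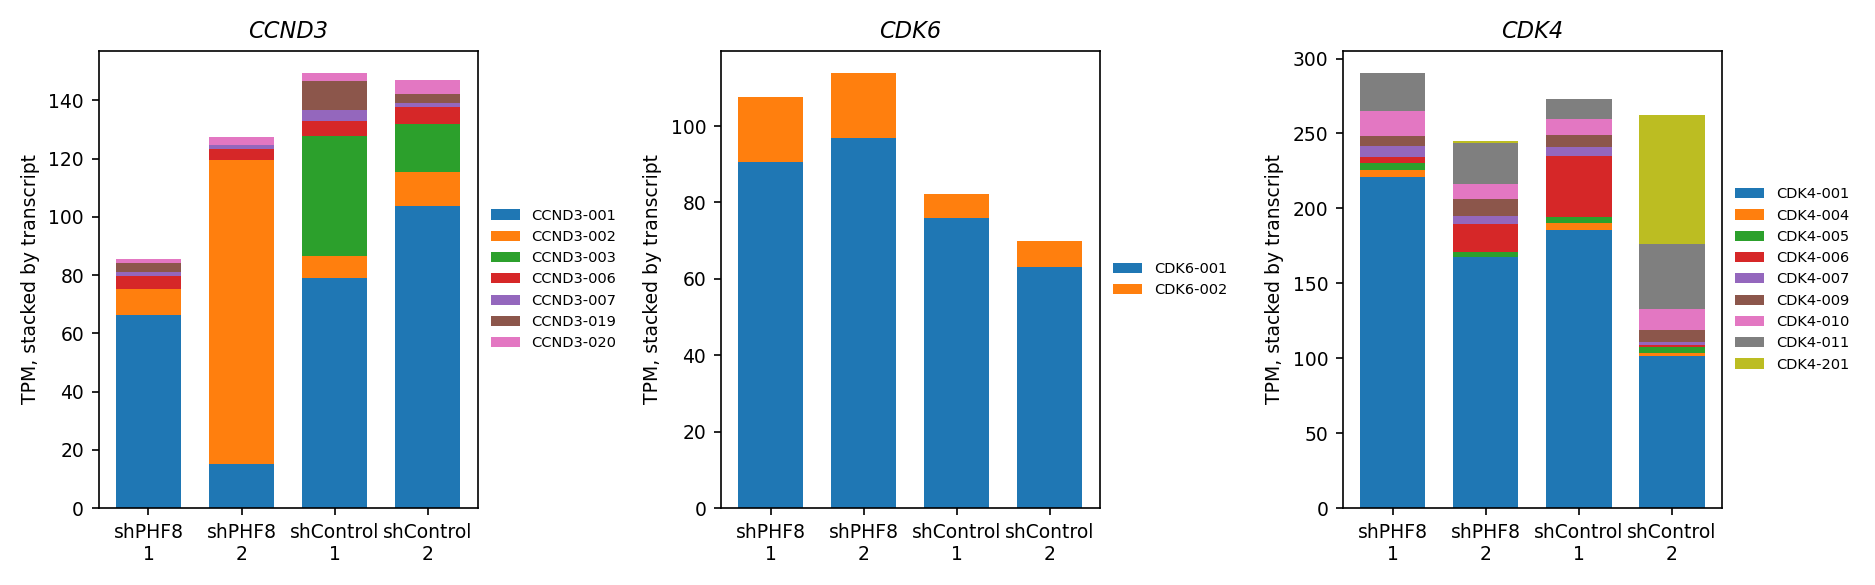
TPM per library, stacked by transcript, for CCND3, CDK6 and CDK4, with shPHF8 libraries left of shControl libraries. CCND3-002 fills 81.8% of the CCND3 bar in shPHF8 replicate 2, CDK6-002 is thicker in both shPHF8 libraries, and CDK4-201 is large in shControl replicate 2 alone.

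The inhibitors of these kinases did not differ in 1 direction. Of the INK4 genes, CDKN2C and CDKN2D were tested, and CDKN2A and CDKN2B were not analysed here. CDKN2C, encoding p18, was at 142.7 and 136.2 TPM in shPHF8, against 124.9 and 111.8 TPM in shControl, a log2 fold change of 0.24 (limma, Benjamini-Hochberg adjusted p = 0.247). CDKN2D, encoding p19, was at 11.4 and 6.66 TPM in shPHF8, against 11.6 and 12.8 TPM in shControl. Of 3 CIP/KIP genes, 1 was higher and 1 lower at an unadjusted p under 0.05, beside 9.90% and 12.1% of all genes. CDKN1A, encoding p21, averaged 31.4 ± 0.855 TPM in shPHF8 and 18.7 ± 1.44 TPM in shControl (SD, n = 2 each), and CDKN1C, encoding p57, 10.3 ± 0.193 and 20.9 ± 5.13 TPM. CDKN1B, encoding p27, averaged 68.2 ± 0.860 TPM in shPHF8 and 67.7 ± 1.37 TPM in shControl, and its sign turned under 4 alternatives.

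Downstream, the pocket proteins that CDK4 and CDK6 phosphorylate all had higher shPHF8 values, a lack of overlap found in this direction in 26.0% of all genes, and 0 of 3 had an unadjusted p under 0.05. RBL2 (p130) was at 56.8 and 60.6 TPM in shPHF8, against 40.5 and 17.3 TPM in shControl, and its log2 fold change of 1.11 was 0.52 without shControl replicate 2 and 1.70 without shControl replicate 1. RBL1 (p107) had a log2 fold change of 0.32, and 0.13 to 0.51 without 1 library. RB1 had one of 0.22, and 0.11 to 0.32 without 1 library. Of 10 E2F and DP factors, 3 were higher and 3 lower at an unadjusted p under 0.05, beside 9.90% and 12.1% of all genes. E2F5, a repressive E2F, had a log2 fold change of -1.32, the E2F partner TFDP2 one of 0.64 and the activator E2F1 one of 0.43. The other 3 were the activator E2F2 at 0.55, the activator E2F3 at -0.55 and the repressive E2F4 at -1.48, which ran from -1.96 without shControl replicate 1 to -1.0 without shControl replicate 2. Without shPHF8 replicate 1 the limma unadjusted p was 0.0771 for E2F4 and 0.15 for E2F3. Of 28 E2F target genes of S phase, 9 were higher and 0 lower at an unadjusted p under 0.05, beside 9.90% and 12.1% of all genes, with a median log2 fold change of 0.22. The helicase subunits MCM6 and MCM7, named for their small p, averaged 250.6 and 370.7 TPM in shPHF8 and 103.0 and 261.6 TPM in shControl. Of the other subunits of this helicase, MCM4 and MCM5 had log2 fold changes of 0.26 and 0.43. MCM2 and MCM3 had ones of 0.06 and -0.11, and each overlapped between the groups.

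At the next step of the cycle, 1 of 8 genes of cyclin E, cyclin A and CDK2 was higher and 2 were lower at an unadjusted p under 0.05. Over all genes 9.90% were higher and 12.1% lower at this threshold, which applies to each count in this paragraph. CDK2 had a log2 fold change of -0.48 and CKS2, a small CDK-binding protein, one of -0.71. The phosphatase CDC25A had one of 0.31, which turned to -0.11 when its most abundant transcript replaced the sum. Of 6 genes of the CDK-activating kinase and the chaperones of CDK4, 0 were higher and 1 was lower, the activating kinase CDK7 at -0.77, which was -6.62 for its most abundant transcript (limma, Benjamini-Hochberg adjusted p = 0.0435 among such transcripts) and -0.51 without shPHF8 replicate 2. The chaperones CDC37 and HSP90AB1 had log2 fold changes of -0.14 and -0.05, which were -0.23 and -0.49 for their most abundant transcripts. Of 11 genes of D-type cyclin phosphorylation and turnover, 1 was higher and 0 lower. This was the kinase DYRK1A at 0.34, and the ubiquitin ligase subunits DDB1 and CUL4B were at 0.17 and -0.16.

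**Figure D4:**
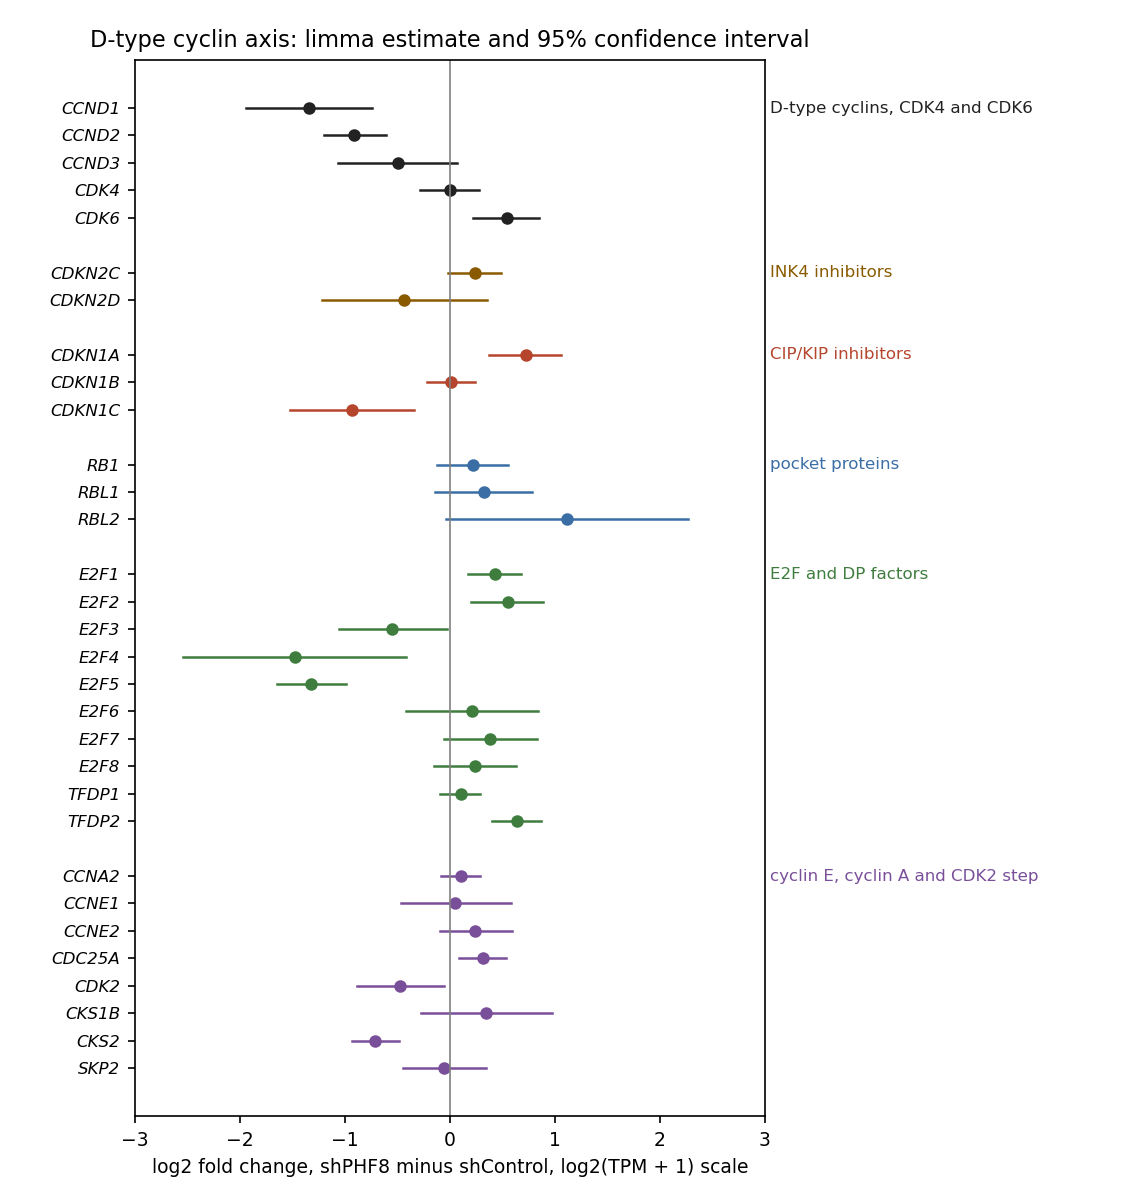
Limma log2 fold change (shPHF8 minus shControl, log2(TPM + 1) scale, horizontal axis) with 95% confidence interval for each tested gene of 6 groups; points are estimates and lines intervals. CCND1, CCND2, E2F5 and CKS2 lie left of 0 and CDK6, CDKN1A and TFDP2 right of it, while the intervals of CCND3, CDK4 and the pocket proteins include 0.

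Among 12 tested upstream regulators of D-type cyclins, 3 were higher and 2 lower at an unadjusted p under 0.05. This and the later counts in this paragraph stand beside 9.90% of all genes higher and 12.1% lower. STAT5B, a transcription factor activated by BCR-ABL1, averaged 120.5 ± 2.86 TPM in shPHF8 and 190.7 ± 18.4 TPM in shControl (SD, n = 2 each). Its paralogue STAT5A, the more abundant of the pair, averaged 412.7 ± 28.7 TPM in shPHF8 and 395.2 ± 27.0 TPM in shControl, and its groups overlapped. The erythroid factor KLF1 and the AP-1 subunit JUN had log2 fold changes of 0.39 and 0.50. The lymphoid factor IKZF1 was at 0.29 and beta-catenin, CTNNB1, at -0.25. Of 15 other cyclins, 0 were higher and 2 lower, CCNI at -0.38 and CCNG2 at -0.67, and the mitotic cyclin CCNB1 was at 0.14. Of 13 other cyclin-dependent kinases, 2 were higher and 2 lower, with CDK12 at 0.39, CDK17 at 0.43, CDK5 at -0.47 and CDK19 at -0.53, and CDK17 was at 0.11 for its most abundant transcript. Of 16 G2/M genes, 5 were higher and 1 lower, with NUSAP1 at 0.44, TOP2A at 0.38, BUB1 at 0.30, CENPF at 0.25, CENPE at 0.47 and AURKB at -0.40. For the most abundant transcript alone, CENPE was at -1.20, NUSAP1 at 0.03 and AURKB at -0.01. No gene of any of these lists passed limma at an adjusted p of 0.05. Of the 33 genes that the naming rule took from the lists and that had an unadjusted p under 0.05, 11 kept both direction and threshold in every alternative that gave a value, and the others lost at least 1 of them in some alternative.

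The genes whose profile over the 4 libraries was nearest to each member were found by Euclidean distance between centred log2(TPM + 1) values. For CCND1 they were LPAR2, MMD and TRIM6, at distances of 0.053, 0.075 and 0.13. For CCND2 they were RAB32, REEP3 and WIPF1, at 0.025, 0.034 and 0.037, and for CCND3 WDR47, MAPK8 and CASP9, at 0.044, 0.050 and 0.052. For CDK4 they were HAUS4, C11orf57 and HSD17B8, at 0.025, 0.028 and 0.029. For CDK6 they were HIST1H2BC, KIAA1524 and E2F2, at 0.032, 0.033 and 0.043. E2F2, an activator E2F, was at 36.8 and 38.1 TPM in shPHF8, against 27.1 and 23.7 TPM in shControl. It was picked for its nearness to CDK6, so its like profile follows from the choice. No link between them was tested.

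Markers of cell identity differed in the same libraries. The 11 erythroid genes that define K562 summed to 16856 to 17676 TPM in shPHF8, against 11027 to 11926 TPM in shControl. Of 12 granulocyte and monocyte markers 5 were analysed, and these summed to 77.9 to 83.1 TPM in shPHF8, against 142.5 to 161.2 TPM in shControl. The 2 of 11 lymphocyte markers summed to 10.98 to 15.6 TPM in shPHF8 and 30.4 to 34.4 TPM in shControl. The 3 of 8 stromal and endothelial markers summed to 302.6 to 305.8 TPM in shPHF8 and 500.3 to 507.5 TPM in shControl, nearly all of it vimentin. The 5 of 8 megakaryocyte markers summed to 49.99 to 52.5 TPM in shPHF8 and 25.6 to 32.3 TPM in shControl. TUBB1 made up most of the shPHF8 sum, with means of 35.1 TPM in shPHF8 and 12.1 TPM in shControl, and PLEK went the other way, at 0 and 0.205 TPM in shPHF8, against 2.75 and 5.04 TPM in shControl. No analysed marker was at 0 in all 4 libraries, PPBP was listed at 0 in 3 of them, and defining markers such as MPO, CD14 and CD3E were not analysed here. The part of these differences in the levels of the cyclins and CDK6 was not tested. All libraries came from the K562 line. In bulk RNA, fewer cells expressing a marker and less of its RNA per cell cannot be told apart.

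**Figure D5:**
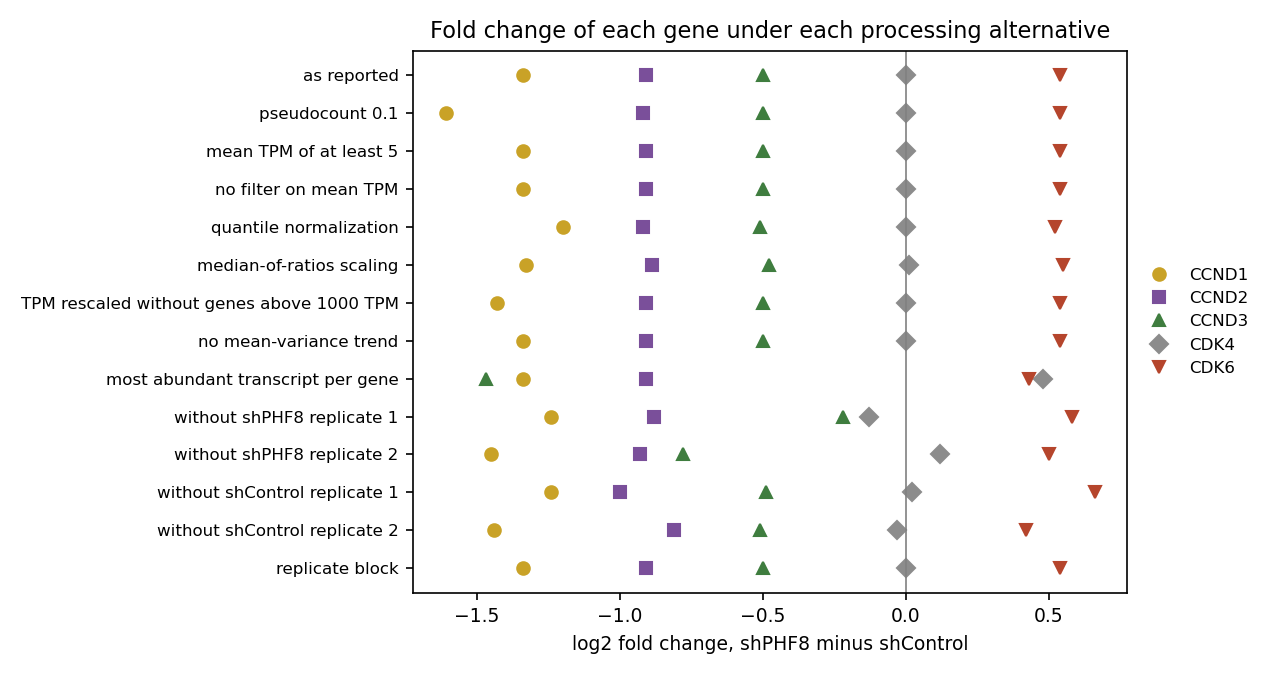
Log2 fold change (shPHF8 minus shControl, horizontal axis) of the 5 genes as reported and under each of 13 processing alternatives (rows); each symbol is a gene. CCND1 and CCND2 stay between -1.61 and -0.81 and CDK6 between 0.42 and 0.66, while CCND3 ranges from -1.47 to -0.22 and CDK4 lies on both sides of 0.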

How the data were processed

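RNA-seq of 2 shPHF8 and 2 shControl K562 libraries was analysed, grouped by title. The authors deposited TPM per transcript, 1 column per library, each summing to 1000000, per the file headers. HISAT2 2.0.4, StringTie 1.2.3 and build hg19 are named in the submitters' processing notes. Neither annotation nor strandedness was given in the sources used here. The deposited signal columns of no stated unit were proportional to TPM and were not used. Depth is unknown, so no counting error can be given.

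TPM were summed per gene name, genes with a mean under 1 TPM were left out, and log2(TPM + 1) was tested with limma 3.58.1 in R 4.3.3 (mean-variance trend, two-sided, Benjamini-Hochberg over all genes or all transcripts, threshold 0.05). The gene fit had 2 residual and 2.16 prior degrees of freedom. This fit was first run on simulated data with known changes. The check was on the median size of the estimates, not on the rate of false or missed calls. Transcript structures came from GENCODE release 29 by identifier (20 of 20 member transcripts found) and promoter windows from RefSeq by symbol (3 of 5 members). The build of both differs from that of the files, so they locate sequences only. Tables and figures used Python 3.11.15, pandas 2.3.3 and matplotlib 3.10.9. The members and lists were chosen with earlier results of these data known. The genes named were PHF8, the members, the 3 genes of each pathway list with the smallest p, every gene of a count of 5 or fewer, and the 3 nearest profiles to each member. A gene that this rule names is not reported here. STAT5A, TUBB1, PLEK, EEF1A1-004, MCM2, MCM3, MCM4 and MCM5 were named after their values were seen.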

Additional observations from a re-analysis of the deposited data

How the results depend on the processing

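No member passed at an adjusted p of 0.05 under any of 13 alternatives, and CCND1, CCND2, CCND3, CDK6 and PHF8 kept their direction in all of them. Their ranges were -1.61 to -1.20, -1.0 to -0.81, -1.47 to -0.22, 0.42 to 0.66 and -2.95 to -1.70, and the lowest adjusted p among the members was 0.0656, for CCND2. Leaving out 1 library gave -1.45 to -1.24 for CCND1, -1.0 to -0.81 for CCND2, -0.78 to -0.22 for CCND3 and 0.42 to 0.66 for CDK6, where a lone library takes its spread from the opposite group. CDK4 turned to 0.00 with quantile normalization, 0.01 with median-of-ratios scaling and 0.48 with the most abundant transcript, and ran from -0.13 to 0.12 without 1 library. The cause was not tested. Over all genes 37 were called with quantile normalization and 21 with the most abundant transcript, none of them a member. Over all transcripts the 1 call became 4 with a minimum of 5 TPM or quantile normalization, and 0 with no filter, without the trend, with the replicate block, and (0 to 0) without any 1 library. The 1086 genes higher at an unadjusted p under 0.05 became 646 without shPHF8 replicate 1, 592 without shPHF8 replicate 2, 1118 without shControl replicate 1 and 929 without shControl replicate 2.

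Same-numbered libraries did not deviate together over all genes (correlation across genes -0.03). This value cannot show whether some genes were paired, and the labels do not say whether the numbers mark pairs. The replicate block left CCND2 at -0.91 (limma, Benjamini-Hochberg adjusted p = 0.193) and changed no call among the genes. Of the 58 other genes named, 753 alternative values held 13 with a turned sign: CDKN1B at -0.01 with quantile normalization, -0.02 with the most abundant transcript and -0.01 to 0.03 without 1 library, C11orf57 at -0.03 with quantile normalization, CDC25A at -0.11 and CENPE at -1.20 with the most abundant transcript, and, without 1 library, HAUS4 from -0.10 to 0.13, C11orf57 from -0.13 to 0.14 and HSD17B8 from -0.12 to 0.13. CCND3-002 ran from -0.05 to 3.33 without 1 library.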
